A study of Mus musculus with 4 samples.

Results

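The genes described are 40 transcription factor genes that carry a homeobox and lie outside the HOX clusters, from the Dlx, Emx, Nkx, Barx, Irx, Meis, Pbx, paired (PRD), Pax, LIM, POU, sine oculis, zinc finger and CUT families. They were chosen with earlier results of these data known and matched by gene name on the array. A gene entered the test if its probe was well above background on all 4 arrays in the control channel or in the treated channel. All 40 names were on the array and 38 passed this limit, of 22455 genes tested and 29924 gene names in all. Barx1, a factor of stomach and craniofacial mesenchyme, and Irx5, an Iroquois factor of heart and limb, did not pass it: the only probe of each was not well above background on any array in either channel. Of the 38, 36 were well above background on 4 of 4 arrays in both groups. Dlx6 passed only through the controls, being above background on 0 of 4 treated channels, and Lhx9 only through the treated channels, being above background on 3 of 4 control channels.

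RNA came from ureters of wild-type NMRI mouse embryos, dissected at E12.5 and kept as explants for 18 h without serum. The treated group received 10 µM IWP-2, which blocks the acyltransferase Porcupine and with it the secretion of WNT ligands by all cells of the explant, and the control group received the solvent DMSO. Each of the 4 two-colour arrays compared pooled treated with pooled control ureters, with the treated RNA in red on arrays 1 and 3 and in green on arrays 2 and 4. Pools joined ureters of several embryos, and inhibition was not restricted to the mesenchyme or the epithelium. The labels number 4 control and 4 treated samples and the methods count 4 pools, whereas another passage of the study speaks of 2 arrays and 2 pools. If arrays shared pools, the p-values would be too small. Deviations of the log2 ratios did not pair between the dye orders (r = -0.04 across 15231 genes, array 1 minus 3 against array 2 minus 4, a description across genes that are not independent). Such an r would also be near 0 if arrays of the same dye order shared pools, so it does not settle whether pools were shared. No source says that the pools came from separate litters, so the p-values measure only the spread between these arrays.

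Homeobox genes encode the homeodomain, a helix-turn-helix fold that binds short AT-rich DNA sequences, and the classes differ in further domains such as the paired, LIM, POU and CUT domains. They are known for setting positional and cell type identity in the embryo. In the developing urinary tract PAX2, PAX8, LHX1 and EMX2 act in the nephric duct and ureteric bud epithelium, SIX2 and MEIS1 are found in metanephric or ureteric mesenchyme, and TALE factors such as MEIS and PBX bind DNA together with HOX proteins. At this stage the ureter consists of an epithelial tube and a mantle of undifferentiated mesenchyme, in which WNT ligands of the epithelium activate CTNNB1-dependent transcription through TCF/LEF factors.

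Upstream sequences are shown for the members that changed by 1.5-fold or more and passed the test, since these carry the main result. Of the 40 members 27 have an entry in the RefSeq promoter table (build GRCm38.p6), with 39 transcription starts. Among the 5 members changed by 1.5-fold or more these are Hopx, Cux2 and Emx2, while Alx1 and Pou3f1 have none. The 250 bases before each start are given 5′ to 3′ on the strand of the gene. Capitals mark matches on either strand to the TCF/LEF form CTTTGAA, its variant CTTTGAT, its variant CTTTGTA or its variant CTTTGTT, and to the homeodomain form TAATTA or its variant TAATTG.
Cux2, chr5:122047826-122048075 (minus strand): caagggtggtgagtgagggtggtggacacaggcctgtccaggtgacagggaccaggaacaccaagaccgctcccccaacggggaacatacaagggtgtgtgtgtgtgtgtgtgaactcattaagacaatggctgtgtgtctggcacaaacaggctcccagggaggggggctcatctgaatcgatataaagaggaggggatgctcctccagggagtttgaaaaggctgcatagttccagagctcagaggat
Cux2, chr5:122049852-122050101 (minus strand): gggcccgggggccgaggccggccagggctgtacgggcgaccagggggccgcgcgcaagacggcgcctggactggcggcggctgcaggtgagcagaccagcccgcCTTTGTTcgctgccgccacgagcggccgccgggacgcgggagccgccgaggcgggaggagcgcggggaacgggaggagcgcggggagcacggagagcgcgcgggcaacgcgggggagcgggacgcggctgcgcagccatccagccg
Emx2, chr19:59458440-59458689 (plus strand): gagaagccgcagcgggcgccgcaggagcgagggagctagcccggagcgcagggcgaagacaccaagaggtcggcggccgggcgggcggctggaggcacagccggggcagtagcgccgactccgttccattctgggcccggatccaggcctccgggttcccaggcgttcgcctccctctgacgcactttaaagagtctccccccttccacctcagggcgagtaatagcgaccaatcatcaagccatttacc
Hopx, chr5:77095268-77095517 (minus strand): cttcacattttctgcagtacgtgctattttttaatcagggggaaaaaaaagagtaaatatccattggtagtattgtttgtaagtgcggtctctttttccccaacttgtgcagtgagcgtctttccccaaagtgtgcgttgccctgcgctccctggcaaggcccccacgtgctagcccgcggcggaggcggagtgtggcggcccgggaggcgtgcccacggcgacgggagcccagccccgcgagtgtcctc
Hopx, chr5:77115124-77115373 (minus strand): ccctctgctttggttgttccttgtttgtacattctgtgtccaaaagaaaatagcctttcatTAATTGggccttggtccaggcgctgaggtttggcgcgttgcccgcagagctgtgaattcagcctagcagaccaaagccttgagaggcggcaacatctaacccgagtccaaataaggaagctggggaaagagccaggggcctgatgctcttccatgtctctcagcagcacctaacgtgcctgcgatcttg

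In these windows Cux2 had 1 TCF/LEF form, starting 146 bases before the upstream start, and Hopx had 1 homeodomain form, starting 189 bases before its upstream start. Emx2 had no match to the letters searched. Over all member starts, 7 of 39 (17.95%) held a TCF/LEF form, in Cux2, Lhx6, Lhx9, Meis3, Satb1 and Zfhx3, against 14.8% of all 32851 starts in the table. A homeodomain form was held by 2 of 39 starts (5.13%), in Hopx and Lhx6, against 11.25% of all starts. A match describes letters in this window and not a bound site.

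Of the 38 members tested, 9 fell and 12 rose with IWP-2 (limma, Benjamini-Hochberg adjusted p under 0.05), and 17 did not pass. This is 23.7% lower and 31.6% higher, beside 15% lower and 18.1% higher among all 22455 genes. Because the members were chosen with earlier results known, these shares and the sizes below only describe the list. Their difference from all genes was not tested. With a change of at least 1.5-fold, 4 members were lower (Alx1, Pou3f1, Hopx and Cux2; 1.91% of all genes) and 1 was higher (Emx2; 1.04% of all genes). All 21 members past the test had the same direction on 4 of 4 arrays, which passing largely requires. Of the 17 members that did not pass, 3 did, with means of -0.14 for Nkx3-2, -0.07 for Irx1 and 0.04 for Nkx2-3. In all, 24 of 38 members had 1 direction on 4 of 4 arrays, beside 9736 of all 22455 genes. The channel intensities of the control and treated groups did not overlap for 13 members (34.2%), all of them past the test, beside 22.4% of all genes. Among these 13 are Dlx6 (lower) and Lhx9 (higher), which entered the test only through the group where they were brighter. Log2 ratios are IWP-2 over control throughout, and the median of the members was 0.04, with 0.06, 0.05, -0.03 and 0.08 on arrays 1 to 4 (SD 0.05), beside 0.00 for all genes. The median size regardless of direction was 0.224 for the members and 0.0955 for all genes.

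These counts rest on small changes for most members and vary with the values used. With the authors' table of fold changes in place of the intensities, 6 members were lower and 5 higher. Calls over all genes became fewer too, at 2050 lower and 1833 higher, beside 3360 and 4068 with the intensities. When the 8 channels were fitted as separate samples, 7 members were lower and 7 higher, beside 2069 and 2040 of all genes. Calls of Alx1, Hopx, Pou3f1, Zfhx4, Cux2, Emx2, Meis2 and Six4 were kept under all 13 alternatives, while the other 13 of the 21 lost theirs under at least 1. Because the explants were profiled whole, fewer cells of a type and less RNA per cell cannot be told apart in any of these values.

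**Figure D1:**
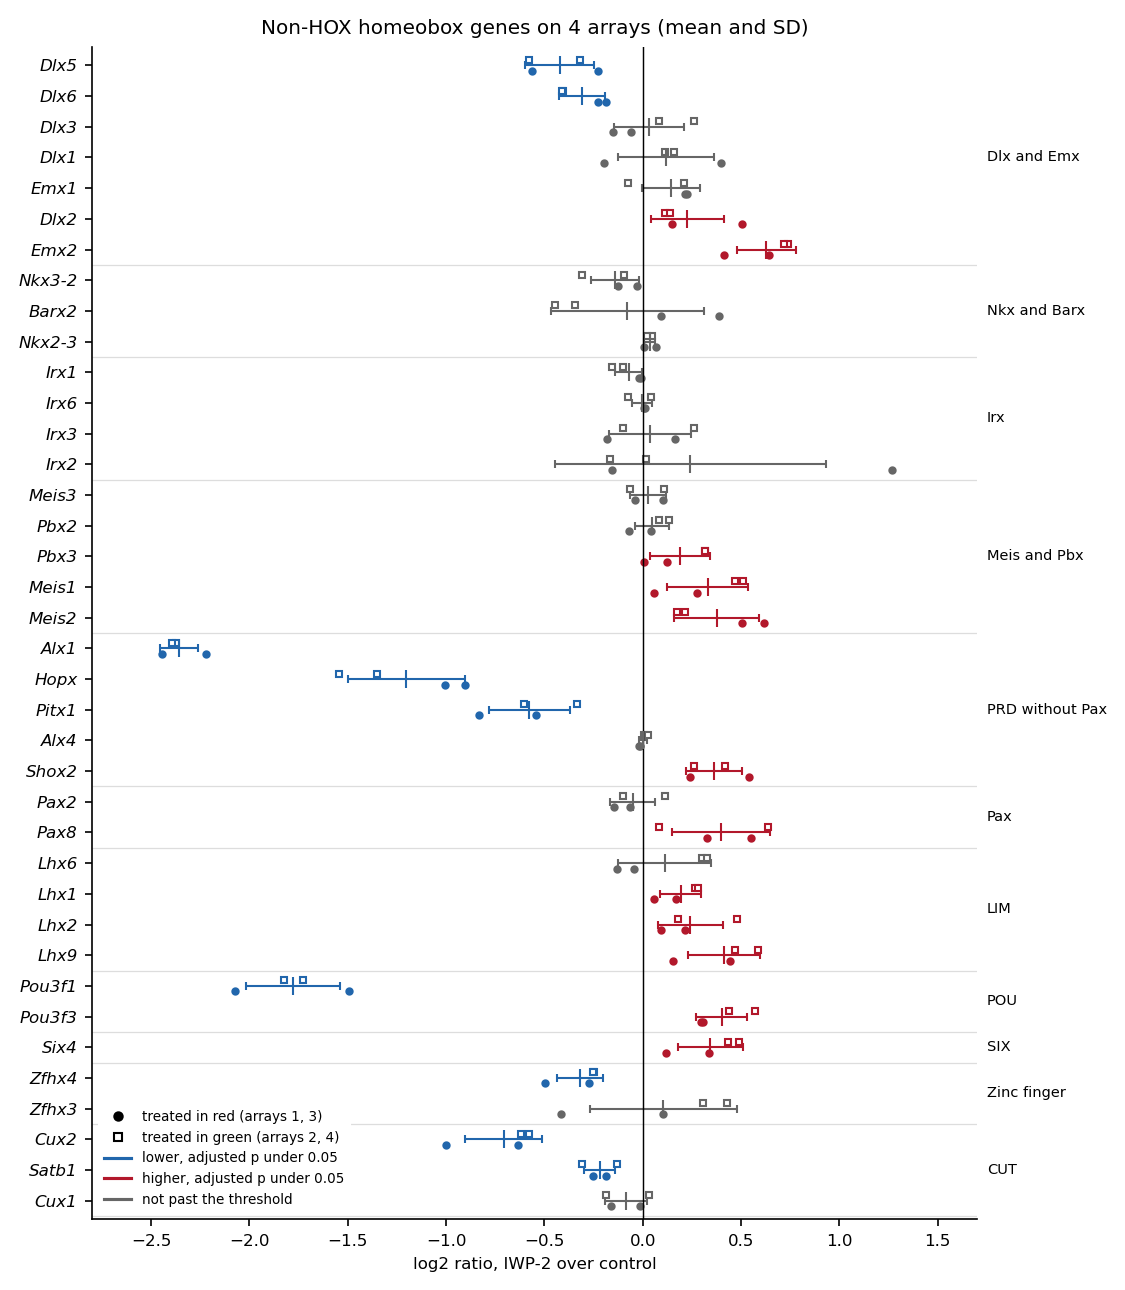
Log2 ratio of IWP-2 over control (x axis) for the 38 members tested, by family. Points are single arrays, filled where treated RNA was red and open where it was green, and the tick and bar give the mean and SD of 4 arrays. The lowest means are those of Alx1 (-2.36), Pou3f1 (-1.78) and Hopx (-1.20), and the highest mean is 0.63 for Emx2. Single arrays of Hopx reach into the range of Cux2, and the highest single point is that of Irx2 on array 3 (1.27).

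Readouts of the pathway and of the tissues were taken from the same arrays. All 6 WNT readout genes (Axin2, Sp5, Lef1, Nkd1, Fzd10 and Tcf7) were lower, at -1.31 to -2.72. All 8 epithelium markers were above background and higher, at 0.24 to 0.64, with a summed intensity of 201849 to 219379 in the controls and 236419 to 294296 with IWP-2. Of the 6 mesenchyme markers, all above background, 1 was lower (Tbx18, at -0.74) and 1 higher (Pdgfrb, at 0.80), and their sums overlapped at 361300 to 390871 and 374622 to 416677. Of the 8 nephron progenitor markers, 5 were higher and 1 lower, with a range of -0.96 to 1.14. Higher were also 4 of 6 endothelium, 4 of 6 blood and 2 of 6 neural crest and neuron markers, with no member of these lists lower. Some of these markers are homeobox genes themselves, such as Six2 and Meox1. The part of tissue composition in the changes of the members was not tested.

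Among the paired-class members without a Pax domain, 3 of 5 were lower and 1 was higher. Alx1, a factor of craniofacial and limb mesenchyme, showed the largest change of all members (probe at chr10:102471172-102471231, mm9, minus strand). Its normalised intensity in the controls of arrays 1 to 4 was 3595, 3338, 3327 and 3785, and with IWP-2 it was 661, 644, 715 and 721. All treated channels lay far below all control channels, with little spread within either group. The log2 ratios were -2.44, -2.37, -2.22 and -2.39, a mean of -2.36 ± 0.10 (SD, n = 4) and a 5.12-fold difference (limma, adjusted p = 7.07e-06).

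Hopx encodes a small atypical homeodomain protein that does not bind DNA itself and acts with partners such as SRF in muscle (chr5:77516624-77516683, mm9, minus strand). Its intensity was 3114, 3540.5, 2829.6 and 3768 in the controls and 1664, 1213, 1408 and 1479 with IWP-2, so that the groups were apart on every array. The ratios of -0.90 and -1.01 on the arrays with treated RNA in red were smaller than those of -1.54 and -1.35 with treated RNA in green. The mean was -1.20 ± 0.30, or 2.30-fold (adjusted p = 3.20e-05 with limma and a dye term). The second probe of Hopx gave -1.28 ± 0.32. The dye term of Hopx itself had an adjusted p of 0.152.

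Pitx1, known for hindlimb and pituitary identity, changed by -0.58 ± 0.21 (adjusted p = 0.00166). Its controls spread from 1395 to 2256 and its treated channels from 959 to 1450, so that the groups overlapped although each array gave a fall. The call was lost when channels were fitted as separate samples, that is without the comparison within each array. Shox2, a factor of the sinoatrial node and limb skeleton, rose by 0.36 ± 0.14 (adjusted p = 0.00592), from 112 to 131 in the controls to 135 to 181 with IWP-2, without overlap. This probe was dim, and the change was 0.80 on the processed signals of the scanner software. Alx4, which acts with Alx1 in skull and limb, had a mean of 0.00 ± 0.02 at a dim level of 216 to 239 over both groups (95% interval of the fit -0.09 to 0.09).

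The POU class went both ways. Pou3f1, also known as OCT6 and required in Schwann cells, was lower (chr4:124337692-124337751, mm9, plus strand). Its intensity was 7093.2, 8028, 8729 and 6715 in the controls and 2518, 2265, 2075 and 2029.9 with IWP-2. All 4 treated values were below the lowest control, and array 1 had the smallest fall and array 3 the largest, at -1.49 and -2.07. The mean was -1.78 ± 0.24, or 3.43-fold (limma, adjusted p = 7.18e-05). Pou3f3, a factor of the distal nephron and of neurons, rose by 0.40 ± 0.13 (adjusted p = 0.00110), with 1109.9 to 1431 in the controls and 1361 to 1939.99 with IWP-2, and lost its call with channels as separate samples.

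In the CUT class 2 of 3 members were lower. Cux2, best known in upper-layer neurons of the cortex, had intensities of 16419.8, 19279.5, 22401 and 15187.5 in the controls and 10579, 12542, 11209.7 and 10180.2 with IWP-2 (chr5:122308503-122308562, mm9, minus strand). The groups did not overlap, and the ratio fell by 1.00 on array 3, more than on the other arrays (-0.63, -0.62 and -0.58). The mean was -0.71 ± 0.20, or 1.63-fold (limma, adjusted p = 0.000660). A second, dimmer probe fell by 0.45 ± 0.08, so that the mean over both probes was below 1.5-fold. Cux1, the broadly expressed relative, lay at -0.08 ± 0.11 (95% interval -0.21 to 0.04), and its 2 other probes gave -0.01 and -0.04. Satb1, a chromatin organiser of T cells, was lower at -0.22 ± 0.08 (adjusted p = 0.0135), and this call was lost without array 2 and without array 3.

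**Figure D2:**
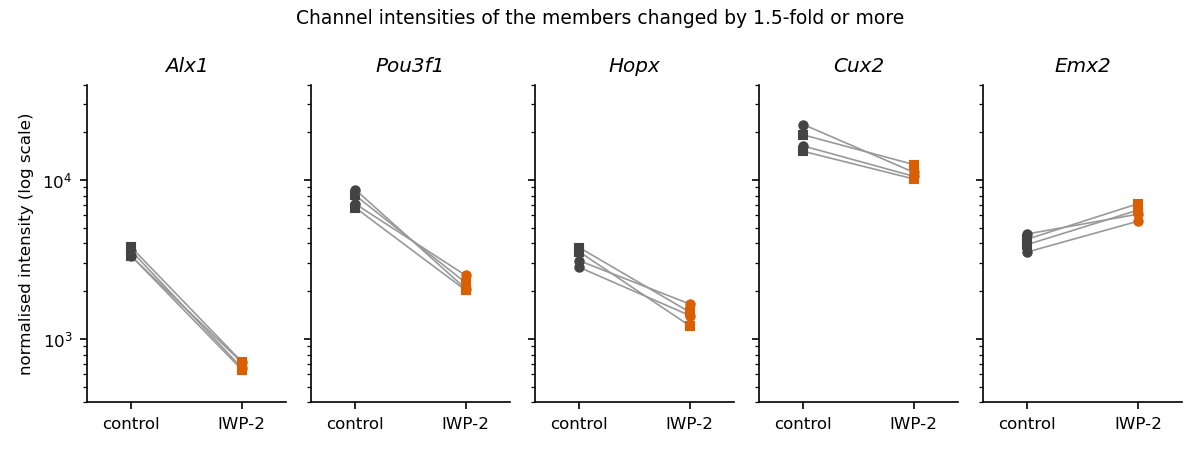
Normalised intensity (y axis, log scale) in the control and the IWP-2 channel for the 5 members changed by 1.5-fold or more. Lines join the channels of 1 array, with circles for arrays 1 and 3 and squares for arrays 2 and 4. In each panel the 4 treated values lie apart from the 4 control values, from 644 to 721 against 3327 to 3785 for Alx1. Levels of different genes come from different probes and cannot be compared between panels.

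The Dlx and Emx genes, homologues of Drosophila distal-less and empty spiracles, gave the largest rise. Emx2, which is required for the ureteric bud and the urogenital system, had intensities of 3537, 4259, 4591 and 3939 in the controls and 5517, 7109, 6112 and 6478.5 with IWP-2 (chr19:59539142-59539201, mm9, plus strand). Every treated value exceeded every control. The ratios were 0.64, 0.74, 0.41 and 0.72, with a mean of 0.63 ± 0.15 or 1.55-fold (limma, adjusted p = 0.000408). The transcript Emx2os, listed under the name of the opposite strand and measured by a probe on the minus strand upstream of it, rose as well, by 0.27 ± 0.09 (adjusted p = 0.00628). The forebrain gene Emx1 was dim, at 0.14 ± 0.15 (adjusted p = 0.0894).

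The Dlx genes act in pairs in craniofacial, limb and forebrain development. The neighbours Dlx5 and Dlx6 on chromosome 6 were both called lower, Dlx6 from a dim signal, and the neighbours Dlx1 and Dlx2 on chromosome 2 were not. Dlx5 fell from 287 to 385 in the controls to 240 to 261 with IWP-2, without overlap, with a mean of -0.42 ± 0.18 (adjusted p = 0.00591). Dlx6 in treated ureters was not well above background, which on the normalised values bounds its fall at 1.22-fold or more. It entered the test only through the controls, so the filter favours its call (limma, adjusted p = 0.00213). Its measured mean was 111 in the controls and 89.8 with IWP-2, with 88.4 as the mean of the dimmest signals called above background. On the processed signals its change was -1.26, past 1.5-fold, whereas the deposited fold changes list no change for it (value 0, limma adjusted p = 1). Dlx2 was higher at 0.23 ± 0.19 (adjusted p = 0.0339), but without array 1, 2 or 4 the call was lost. Dlx1 lay at 0.12 ± 0.25, with -0.20 on array 3 and 0.40 on array 1. Dlx3, an epithelial gene of placenta, skin and tooth, lay at 0.03 ± 0.18. Both were past no threshold. Among transcripts named as antisense or opposite strand of members, Dlx6os2, Irx3os and Lhx1os were tested and lay between -0.06 and 0.02 (lowest adjusted p = 0.412), and Dlx1as and Dlx6os1 did not pass the limit on dim probes.

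The TALE cofactors Meis and Pbx only rose where they passed the test. Meis2 changed by 0.38 ± 0.22 (adjusted p = 0.00130), from 25679 to 33062 in the controls to 36387 to 40548 with IWP-2. Meis1 changed by 0.33 ± 0.21 (adjusted p = 0.00392), from 53446.5 to 62494 in the controls to 64788 to 78778 with IWP-2. Neither overlapped between the groups, yet their arrays split by dye in opposite ways: Meis1 rose least on arrays 1 and 3 (0.28 and 0.06) and Meis2 on arrays 2 and 4 (0.18 and 0.21). Pbx3 changed by 0.19 ± 0.15 (adjusted p = 0.0143) and lost its call without array 1. Meis3 (0.03 ± 0.09) and Pbx2 (0.05 ± 0.09) did not pass, with 95% intervals of the fit within -0.09 and 0.15. Of the 35 HOX cluster genes tested 19 (54.3%) were higher and 6 (17.1%) lower, beside 18.1% and 15% of all genes. None changed by 1.5-fold, with a range of -0.57 to 0.55. Meis and Pbx proteins hold HOX factors on DNA, but a link between the changes of these genes was not tested.

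The LIM and Pax members that passed were all higher. Lhx1, needed for the nephric duct and renal vesicle, changed by 0.19 ± 0.10 (adjusted p = 0.0139), lost the call without array 1, and had a second probe at -0.05 ± 0.16. Lhx2, a factor of eye, forebrain and limb, changed by 0.24 ± 0.17 (adjusted p = 0.0224), lost without array 2 and without array 3. Lhx9, a gonad and limb factor, changed by 0.41 ± 0.18 (adjusted p = 0.00310), from 93.5 to 109 in the controls to 116 to 148 with IWP-2, and its second probe gave 0.27 ± 0.06. It was dim as well, and the change was 1.13 on the processed signals. Lhx6, a factor of interneurons and tooth mesenchyme, was bright, with 9966 to 12787 in the controls, and differed by dye, at -0.05 and -0.13 on arrays 1 and 3 against 0.30 and 0.33 on arrays 2 and 4. It did not pass (adjusted p = 0.0719).

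Pax8, which acts with PAX2 in the nephric lineage, changed by 0.40 ± 0.25 (adjusted p = 0.0186), with 0.33, 0.63, 0.55 and 0.08 on arrays 1 to 4, and lost the call without array 3. Pax2, known in the epithelium of the ureteric bud, was near the detection limit on these arrays: its brightest probe gave 126 to 153 in the controls and 136 to 142 with IWP-2, and its 2 other probes were not above background in any control. Its change was -0.05 ± 0.11 (95% interval -0.17 to 0.07). Beside these genes of epithelial lineages, the summed intensity of the epithelium markers was higher with IWP-2 without overlap, as given above. The median change of the 8 markers was 0.32, that of Emx2 was 0.63, of Pax8 0.40 and of Lhx1 0.19, and the part of epithelial RNA in these rises was not tested.

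Six4, a factor of muscle and kidney development, was the only sine oculis homologue among the members and rose by 0.34 ± 0.16 (adjusted p = 0.00336), from 6846 to 7842 in the controls to 8517 to 10419 with IWP-2, without overlap. Of the large zinc finger homeobox genes, Zfhx4 fell by 0.32 ± 0.12 (adjusted p = 0.00440), with -0.50 on array 3 and -0.27 to -0.25 elsewhere, and its second probe gave -0.46 ± 0.25. Zfhx3, a tumour suppressor and clock regulator, gave 0.10, 0.31, -0.42 and 0.43 on arrays 1 to 4 and did not pass (adjusted p = 0.379).

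No member of the Irx, Nkx and Barx families passed the test. The Iroquois genes Irx1 (-0.07 ± 0.07), Irx3 (0.04 ± 0.21) and Irx6 (-0.00 ± 0.05) had 95% intervals of -0.16 to 0.02, -0.15 to 0.23 and -0.10 to 0.10. Irx2, which lies beside Irx1 on chromosome 13, was dim and read 120 to 161 in all channels but the treated one of array 3, which read 388. Its ratio on that array was 1.27, with the 4 spots between 1.11 and 1.35, against -0.17 to 0.02 on the others. The second Irx2 probe, below background, gave 0.33 there and -0.10 to -0.03 elsewhere. The mean of 0.24 ± 0.69 therefore came from 1 array (adjusted p = 0.409). Nkx2-3, a factor of gut and spleen mesenchyme, lay at 0.04 ± 0.03 and Nkx3-2, a factor of axial skeleton and spleen, at -0.14 ± 0.12 (adjusted p = 0.0774). Barx2, known in muscle and epithelial morphogenesis, split by dye: 0.09 and 0.39 on arrays 1 and 3 against -0.45 and -0.34 on arrays 2 and 4, with an adjusted p of 0.150 for its dye term. A second Barx2 probe gave -0.07 ± 0.09. All tested members of these families except Irx3 averaged 114 to 152 in the controls, dim values at which the offset draws ratios towards 0.

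Relatives outside the 40 members showed how members compare within their families; they were chosen after their values had been seen. Within the 40, Alx1 stood at -2.36 beside 0.00 for Alx4, and every array of Alx1 was below every array of Alx4. Pou3f1 stood at -1.78 beside 0.20 for Pou3f2 and 0.40 for Pou3f3. Pitx1 stood at -0.58 beside -0.05 for Pitx3. Irx4, a ventricle factor beyond Irx2 in the same cluster, fell by 0.89 ± 0.26 (adjusted p = 0.000935) where no member of the Irx family passed. Six2, a nephron progenitor gene, rose by 1.14 ± 0.27 (adjusted p = 0.000540), more than Six4 on every array, while Six5 lay at -0.08. None of these differences between relatives was tested.

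**Figure D3:**
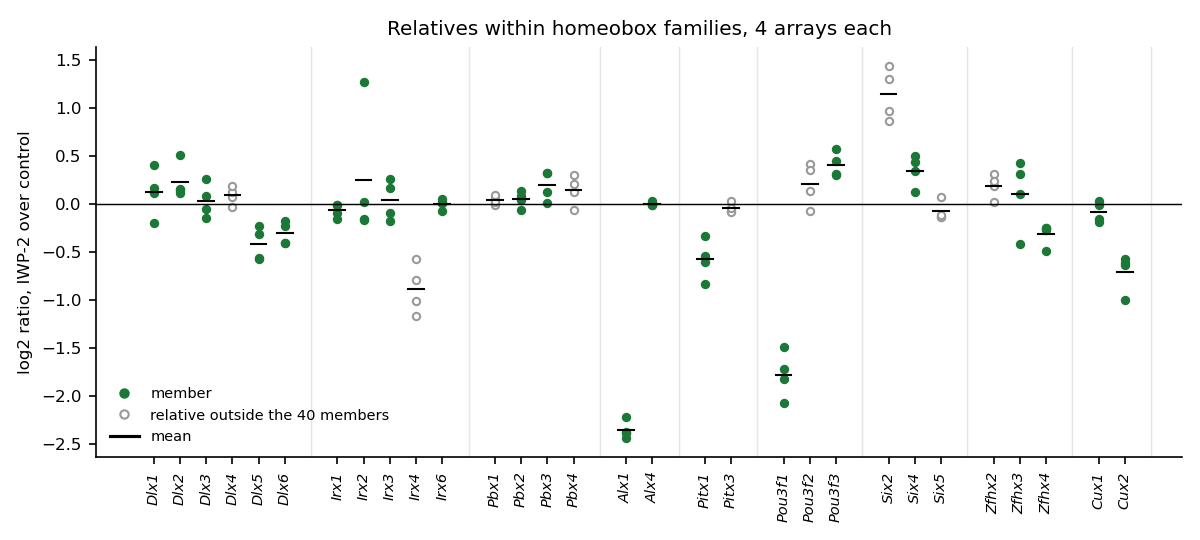
Log2 ratio of IWP-2 over control (y axis) on each of 4 arrays for tested genes of 9 homeobox families, with filled points for members, open points for relatives and a line for the mean. Within the Alx and Pou3f families Alx1 (-2.36) and Pou3f1 (-1.78) lie apart from the others shown, which are near or above 0.

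For context, 140 further non-HOX homeobox genes were listed, of which 96 were tested. Of these, 22 (22.9%) were lower and 24 (25.0%) higher, shares between those of the members and those of all genes. Among those at least 1.5-fold lower were Evx1, a posterior even-skipped homologue (-1.52 ± 0.14, adjusted p = 1.94e-05), Tshz3, a ureteric smooth muscle regulator (-1.21 ± 0.81, adjusted p = 0.000952), Msx2, a BMP-responsive factor (-0.98 ± 0.15, adjusted p = 6.00e-05), and Irx4. Six2 was among those at least 1.5-fold higher. Tshz3 split by dye, with -0.97 and -0.17 on arrays 1 and 3 against -1.95 and -1.76 on arrays 2 and 4.

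**Figure D4:**
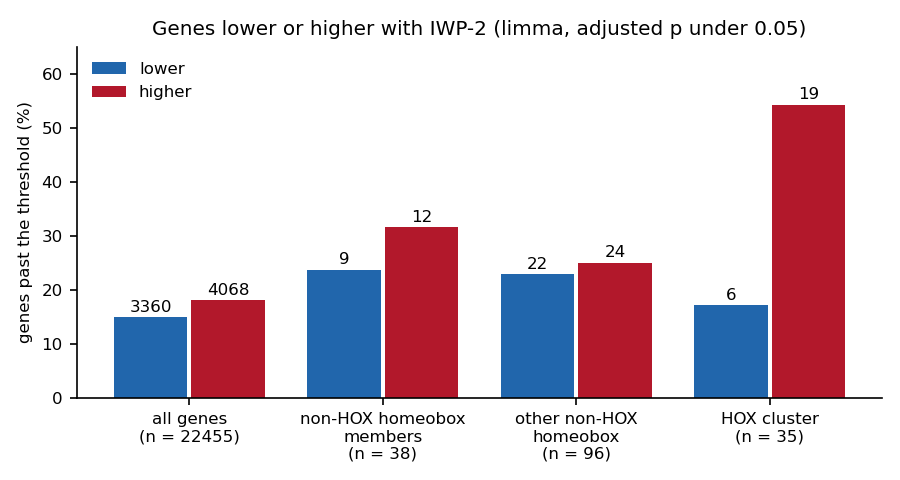
Share of genes (y axis, percent) lower (blue) and higher (red) with IWP-2 at an adjusted p under 0.05 among all genes, the members, other non-HOX homeobox genes and HOX cluster genes. Numbers above the bars are gene counts, and n is the number tested. The members show 23.7% lower and 31.6% higher beside 15% and 18.1% of all genes. They were chosen with earlier results known, and the difference was not tested.

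The study filtered these arrays for intensities above 100 together with changes above 2-fold, required of every array. The members that met this were 2, Alx1 and Pou3f1, both lower, and 0 that were higher. Over all gene names 96 lower and 21 higher genes met it. Hopx missed it because of array 1 alone, where its fall was -0.90 on the normalised values. Without array 1, or with a limit of 1.5-fold, Hopx passed too, and with an intensity limit of 50 the members stayed at 2.

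Further probes past the limit on background existed for 10 members, that of Lhx9 only through the treated channels. Of these 12 probes, 10 had the sign of the probe used, and the exceptions were Lhx1 and 1 of 2 for Meis3. The dye term passed the threshold for 0 of 38 members (lowest adjusted p = 0.150), and 10 had an unadjusted p under 0.05 for it. The share over all genes was not counted, so the 10 only describe these members. The fit includes the dye term for every gene, and each SD above still contains the dye effect.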

How the data were processed

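RNA of IWP-2-treated and control E12.5 ureter explants was compared on 4 two-colour Agilent arrays. The authors ran Agilent Feature Extraction 10.7.3.1, and the deposited files give raw and processed intensity values per channel and spot on the design's mm9 positions. The deposited log10 ratio served only to check direction. The authors also deposited a table of 1 signed fold change per probe and array, whose normalisation is not stated. Its log2 values followed the ratios of processed signals with r of 0.935 to 0.953, and it was used as an alternative. It holds the direction treated over control.

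Raw intensities were corrected with normexp (offset 50) and normalised by loess (span 0.3) in limma 3.58.1 (R 4.3.3). Outlier spots (3.01% to 3.38%) were dropped and the spots of a probe averaged. No spot was saturated, 75.1% to 80.0% of probes were well above background per channel, and all arrays lay on 1 slide. A gene was tested if its probe had over 0.5 of its spots well above background in all 4 control or all 4 treated channels, and the brightest such probe stood for it. Log2 ratios were fitted in limma (lmFit, eBayes) with a dye term over all 22455 genes, with Benjamini-Hochberg adjustment and 0.05 as the threshold. The fit was tested on simulated data with known changes. Intensities printed per group are 2 to the power of the log2 values after loess and Aquantile. The number of arrays limits the precision. For a gene dim on all 4 arrays of 1 group a bound is given, the mean of the bright group over that of the higher of its own signal and the dimmest signal above background. Probes carry the gene names of the design. No mm9 annotation was used, so exons are not assigned. RefSeq promoters (GRCm38.p6) were read with Python 3.

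The members and lists were chosen with earlier results of these data known. All members are named, those past the test at 1.5-fold with every array, and of other homeobox lists the genes past the test at 1.5-fold, some of which are not reported here. Relatives outside this rule are marked. The alternatives were other normalisations, offset, filters, probes, no dye term, the deposited fold changes, channels as samples and each array left out.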

Additional observations from a re-analysis of the deposited data

Results flagged for a closer look

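For 49 values, the 38 members tested and the medians of the members and of the families with over 1 gene, an array was singled out where its gap to the nearest other array exceeded Dixon's 95% critical share of the range. Chance does this in about 1 of 20 groups of 4, or 2.45 of 49, and 5 were found. Irx2 had 1.27 on array 3 against at most 0.02 elsewhere (gap 0.871 of the range). Cux2 fell most on array 3, by 1.00 (0.864), as did Zfhx4, by 0.50 (0.899). Dlx2 had 0.51 on array 1 and 0.11 to 0.15 elsewhere (0.904). Emx1 had -0.07 on array 2 and 0.21 to 0.23 elsewhere (0.953). In 3 of the 5 cases the array apart was array 3. The cause was not tested.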

How the results depend on the processing

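Fits under 13 alternatives turned the direction of no member past the test, but means of members that did not pass changed sign, such as Irx2 (-0.11 without array 3). The count of members higher, 12 in the report, was 5 with the deposited fold changes and 7 with 8 channels as separate samples. Over all genes the count higher, 4068 in the report, was 1833 and 2040 under the same settings. Members at least 1.5-fold higher, 1 in the report, were 3 on processed signals (Emx2, Shox2 and Lhx9) and 2 with offset 10 (Emx2 and Lhx9). Leaving out each array in turn gave 8 to 9 members lower, 10 to 12 higher, 4 to 5 at least 1.5-fold lower and 1 at least 1.5-fold higher. That 1 was Emx2, but without array 1 it was Irx2. The study's filter then left 2 to 3 members lower. With 1 array left out, 1 dye order rests on 1 array, assumed to vary like the others. Under these settings the all-gene median ranged from -0.01 to 0.02. A filter on signals over 100 in both channels left 23 members. The slide could not be fitted as a block because all arrays lay on 1 slide. The fit is paired by array, since every ratio compares both groups within 1 array. No pairing beyond this was possible because the arrays form a single group. For dim members, such as Lhx9 and Shox2, signal over background limits the size of a change.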
